A study of Mus musculus with 12 samples.

Results

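The samples described here are mouse embryonic stem cells (ESC) in which activators were directed at 2 enhancers of Shh, set against ESC whose labels name no transfection, and the measurement is the frequency of contacts across the Shh locus. The group labelled tSBE(6+2-Vp64) has 4 libraries, from 2 biological replicates with 2 technical replicates each, and the ESC group has 2 libraries, from 2 biological replicates. They were chosen by their titles and make up 6 of the 12 samples of the series. Both groups are the 46c line, mouse ESC that carry a green fluorescent reporter at Sox1, a gene of early neural cells, and the labels give the tSBE(6+2-Vp64) cells as transfected 46c ESC. The t is read here as TALE, a DNA-binding protein built to recognise a chosen sequence, and Vp64 as a synthetic activation domain made of repeats of the viral VP16 domain. The binding sites, the dose, the time after transfection and any sorting of transfected cells were not stated in the labels, so the libraries may hold cells without either protein. Cells carrying a binding protein without Vp64 were not analysed here, and transfection and activator cannot be told apart. 5C reads DNA, so stem cell identity, the presence of the proteins and Shh transcription could not be checked from these values.

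Shh encodes Sonic hedgehog, a signal that cells secrete to give their neighbours position in the neural tube and in the limb bud. It lies at the edge of a large gene-poor domain that ends near Lmbr1, and its enhancers are spread through that domain. SBE6, SBE4 and SBE2 are enhancers active in the developing brain and neural tube, and the limb enhancer ZRS lies in an intron of Lmbr1. Shh is silent in ESC. Contacts inside such a domain are more frequent than contacts that cross its edges, and an enhancer that comes closer to its gene would be read as more ligation between the fragments that hold them. The comparison asks whether contacts of Shh, SBE6 and SBE2 differ once activators are brought to both enhancers.

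In chromosome conformation capture carbon copy (5C), crosslinked chromatin is cut with HindIII and religated, and ligated ends are read with pairs of oligonucleotides. The deposited value of a fragment pair is its reads per 1000 reads of the library. The 341 fragments shared by all files cover chromosome 5 from 28317087 to 30005000 (mm9), with a median length of 2.42 kb. Of their 57970 pairs, 28980 were above 0 in at least 1 library of the series. The fragments fell into 2 classes of 176 and 165. All pairs above 0 joined the 2 classes, and no pair within a class was above 0 in any library. Only 60 of the 29040 pairs between the classes were at 0 throughout. A 5C product needs a forward and a reverse oligonucleotide, so a pair within a class at 0 says nothing about contact, and such pairs were left out of all means. Each library was rescaled to 1000 over the shared fragments.

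The libraries differed in coverage before any comparison of groups. In what follows, 1a and 1b are the technical replicates of biological replicate 1 of tSBE(6+2-Vp64), 2a and 2b are those of replicate 2, and ESC 1 and ESC 2 are the ESC replicates. The smallest step of the values implied 22.0 M reads in ESC 1, 20.7 M reads in ESC 2, 32.9 M reads in 1a, 38.4 M reads in 1b, 11.1 M reads in 2a and 9.25 M reads in 2b. The share of the 28980 pairs above 0 was 86.7% in ESC 1, 49.9% in ESC 2, 99.7% in 1a, 80.9% in 1b, 48.0% in 2a and 32.9% in 2b. Library 1a thus saw nearly all pairs, and ESC 2, 2a and 2b each saw a minority. Coverage did not follow depth throughout: ESC 1 and ESC 2 were close in depth but not in coverage, and 1a saw more pairs than the deeper 1b. The number of highest pairs that together held 50% of the signal was 316 in ESC 1, 151 in ESC 2, 4310 in 1a, 150 in 1b, 110 in 2a and 156 in 2b. Library 1a stood apart: its reads were spread over far more pairs than those of any other library, its own technical partner 1b included. Over pairs more than 50 kb apart, the Spearman rank correlation of 1a was 0.642 with ESC 1 and 0.424 with 1b, and that of 2a with 2b was 0.194 (27208 pairs of shared fragments, a description only). Averaging within a biological replicate therefore joined libraries that differed, and results below are given for each library and, where they turn on it, without 1a.

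Over 3509 pairs of 20-kb bins, the median absolute log2 difference was 1.36 between 1a and 1b, 1.19 between 2a and 2b, 0.94 between ESC 1 and ESC 2, and 1.32 between the 2 biological replicates of tSBE(6+2-Vp64). The median absolute difference between the group means was 0.56. The last value compares averages of several libraries and the technical replicates are single libraries, so the sizes are not set against each other.

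The tSBE(6+2-Vp64) libraries divided their signal differently between short and long distances, among themselves as well as from ESC. Pairs within 20 kb held 56.1% and 55.0% in ESC 1 and 2 against 9.54%, 46.8%, 36.8% and 64.7% in 1a, 1b, 2a and 2b. Library 1a was far below and 2b was above both ESC libraries. Pairs over 50 kb apart held 37.3% in ESC 1, 40.6% in ESC 2, 82.9% in 1a, 48.7% in 1b, 59.8% in 2a and 30.2% in 2b, each known to within 0.0592 percentage points as a 95% Wilson interval (counting error only, since reads without molecular identifiers are not independent molecules). All but 2b lay above both ESC libraries, and 2b lay below both. As means of biological replicates this share was 39.0% ± 2.37 in ESC and 55.4% ± 14.7 in tSBE(6+2-Vp64) (SD, n = 2 each; exact two-sided permutation p = 0.333, the smallest that 2 against 2 replicates can give). Without 1a the difference fell from 16.5 to 7.92 percentage points, and without biological replicate 1 it was 6.04. Pair by pair, both biological replicates lay below both ESC replicates in 219 of the 799 fragment pairs within 20 kb (27.4%) and above both in 2.50%. Beyond 50 kb, 4580 of 27208 pairs (16.8%) were above in both and 4.41% below in both. A pair at 0 in either ESC library could not be counted as below, here and in the counts that follow. ESC 2 was above 0 in 97.5% of the pairs within 20 kb. It was above 0 in 49.6% of those at 200 to 500 kb and 40.6% of those at 500 to 1000 kb. The 2 directions beyond 50 kb are therefore not set against each other. With each of the 4 libraries required to lie on the same side, 1.71% of the pairs beyond 50 kb were above and 1.43% below. Within 20 kb, 0.501% were then above and 7.26% below.

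The slope of log10 mean value on log10 distance, between 20 and 1000 kb, was -0.67 in ESC 1, -0.48 in ESC 2, -0.38 in 1a, -0.34 in 1b, -0.20 in 2a and -0.62 in 2b. A value nearer 0 means a flatter decline. The mean of replicates was -0.58 ± 0.14 in ESC and -0.38 ± 0.01 in tSBE(6+2-Vp64) (SD, n = 2 each; exact permutation p = 0.333). Library 2b, at -0.62, lay between the ESC libraries, and the other libraries of tSBE(6+2-Vp64) were flatter than both. Leaving out the recurrent long-range pairs described below, the slopes were -0.68 and -0.57 in ESC 1 and 2 against -0.41, -0.48, -0.39 and -0.70 in 1a, 1b, 2a and 2b. The level of 1a was also broad: at 200 to 500 kb its median pair held 0.0227 per 1000, against 0.00738 in ESC 1 and 0.00378 in 1b. In ESC 2, 2a and 2b the median pair of that class was at 0. In 2a the mean changed little beyond 50 kb, from 0.0262 per 1000 at 50 to 100 kb to 0.0238 at 200 to 500 kb. The latter class held 19.4% of the signal of 2a. It includes several of the recurrent pairs, of which Shh_140 with Shh_260 alone held 52.1 per 1000. The plot of contact and coverage against distance shows the 6 libraries.

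**Figure D1:**
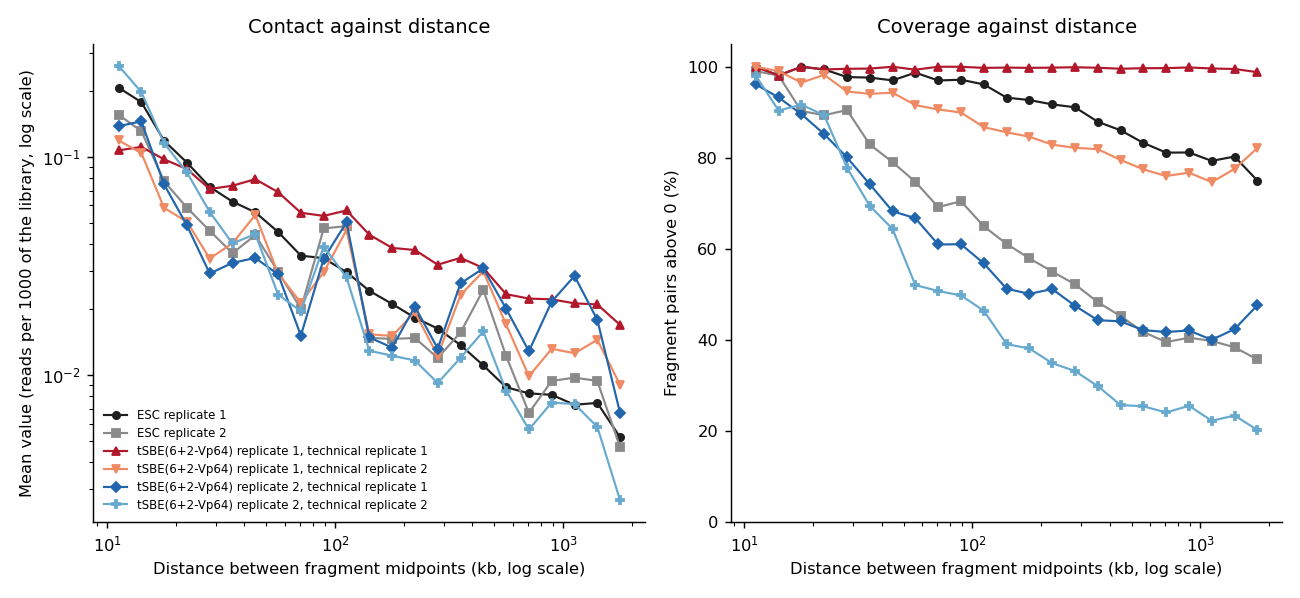
Left, mean value (reads per 1000 of the library) of fragment pairs above 0 in any library, by distance class in kb on log scales; right, the percent of those pairs above 0 in each library. Points are distance classes and lines join the classes of 1 library: 1a (red) stays at the top of the right panel, and 2b (light blue) has the lowest coverage at the longer distances.

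Contacts that crossed the edges of the Shh domain took a larger share of the signal in 3 of the 4 tSBE(6+2-Vp64) libraries than in ESC. The locus was divided into the domain from Shh to the Lmbr1 promoter (183 fragments), the flank on the Shh side, which holds Insig1, En2, Cnpy1 and Rbm33 (85 fragments), and the flank beyond the Lmbr1 promoter, which holds Nom1, Mnx1 and Ube3c (73 fragments). Signal joining the domain to either flank was 11.7% in ESC 1, 20.2% in ESC 2, 34.5% in 1a, 25.2% in 1b, 35.0% in 2a and 13.5% in 2b. The values of 1a, 1b and 2a lay above both ESC libraries, and that of 2b lay between them. The mean of replicates was 16.0% ± 6.01 in ESC and 27.0% ± 3.99 in tSBE(6+2-Vp64) (SD, n = 2 each; exact permutation p = 0.333). The difference of 11 percentage points was 8.74 without 1a, 5.67 without 2a and 6.80 without ESC 1. Leaving out the recurrent long-range pairs described below, the share was 11.6% and 12.97% in ESC 1 and 2. It was then 32.97%, 16.4%, 22.04% and 9.06% in 1a, 1b, 2a and 2b. With both edges moved 20 kb outwards it was 12.4% and 16.5% in ESC 1 and 2. It was then 32.9%, 19.2%, 26.7% and 12.2% in 1a, 1b, 2a and 2b. In both settings 1a, 1b and 2a stayed above both ESC libraries, and 2b lay below both.

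By segment, signal between the Shh-side flank and the domain was 5.79% in ESC 1, 11.7% in ESC 2, 18.6% in 1a, 13.8% in 1b, 21.0% in 2a and 8.2% in 2b. Signal between the domain and the Lmbr1-side flank was 5.94% in ESC 1, 8.53% in ESC 2, 15.9% in 1a, 11.4% in 1b, 14% in 2a and 5.26% in 2b. Signal between the 2 flanks was 2.31% in ESC 1, 2.35% in ESC 2, 6.44% in 1a, 3.79% in 1b, 5.22% in 2a and 1.77% in 2b. In all 3 classes 1a and 2a were the highest, 1b came next, and 2b lay below ESC 2. Signal within the domain was 51.9% in ESC 1, 45.8% in ESC 2, 37.5% in 1a, 43% in 1b, 35.3% in 2a and 49.3% in 2b, where 1a, 1b and 2a lay below both ESC libraries. Among pairs over 50 kb apart alone, the domain-crossing share was 30.9% in ESC 1, 49.1% in ESC 2, 41.4% in 1a, 51.3% in 1b, 58.2% in 2a and 43.9% in 2b, so that the groups overlapped once the share of long-range signal was set aside. With both edges moved 20 kb outwards that share was 31.4% and 39.2% in ESC and 37.4% to 44.1% over the 4 libraries of tSBE(6+2-Vp64).

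**Figure D2:**
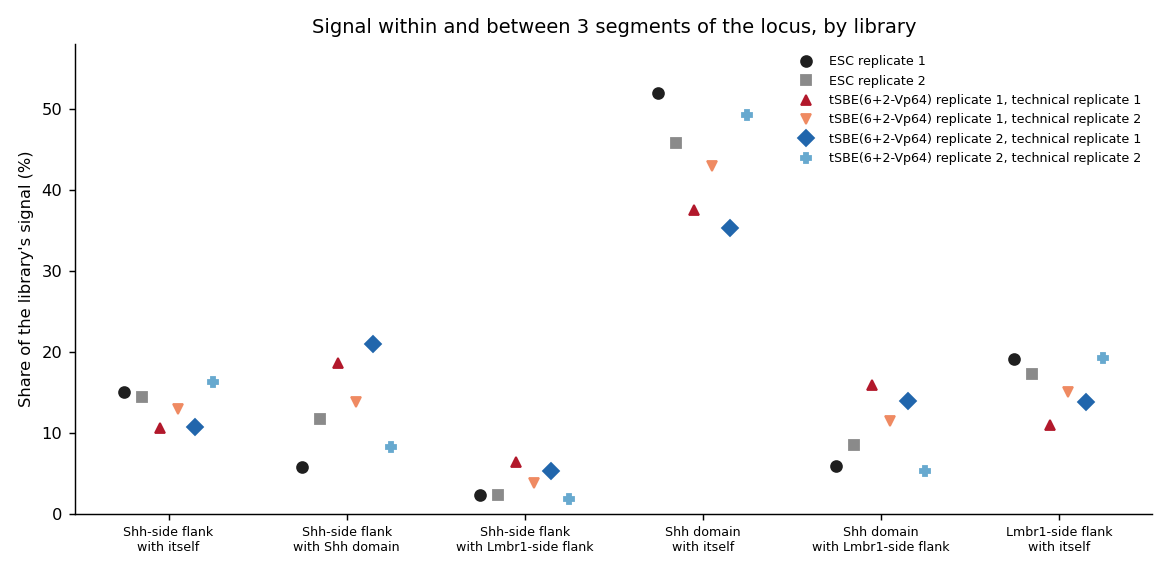
Percent of each library's signal within and between the 3 segments of the locus, with 1 point per library. In the 3 classes that join different segments 1a and 2a are highest; within the Shh domain ESC 1 (51.9%) is highest and 2a (35.3%) lowest.

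Insulation at each edge was read as the log2 ratio of the mean value of pairs that crossed the edge to that of pairs that did not, for pairs 20 to 200 kb apart within 200 kb of the edge. A lower value is stronger insulation. At the Shh edge it was -1.82 in ESC 1, -1.37 in ESC 2, -0.88 in 1a, -1.06 in 1b, -0.14 in 2a and -1.86 in 2b. By this ratio 1a, 1b and 2a were less insulated than both ESC libraries, and 2b was the most insulated of the 6. The means were -1.59 ± 0.32 in ESC and -1.0 ± 0.10 in tSBE(6+2-Vp64) (SD, n = 2 each; exact permutation p = 0.333), and the difference of 0.60 ranged from 0.20 without 2a to 1.06 without 2b.

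At the Lmbr1 edge the ratio was -1.46 in ESC 1, 0.55 in ESC 2, -0.58 in 1a, 0.61 in 1b, 0.86 in 2a and -0.37 in 2b. The values of 1a and 2b lay between the ESC libraries, those of 1b and 2a lay above both, and the exact permutation p was 1. Recurrent fragment pairs cross this edge, and without them the ratios were -1.55 and -0.71 in ESC 1 and 2 against -1.23, -1.49, -1.13 and -1.40 in 1a, 1b, 2a and 2b. All 6 were then below 0, and the difference of the group means went from 0.64 to -0.15.

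A small set of fragment pairs far apart on the chromosome held a large part of the signal. Among the libraries compared here, their sum was highest in 2a and lowest in ESC 1. These are the 21 pairs over 50 kb apart that held more than 0.5% of any library of the series. The last pair inside this limit reached 0.594% of a library and the first outside reached 0.407%. Together they held 0.222% in ESC 1, 12.8% in ESC 2, 5.21% in 1a, 16.4% in 1b, 27.6% in 2a and 8.09% in 2b. ESC 1 was the lowest of all 11 distinct libraries of the series in each of the 21 pairs. They were chosen for a high value, so the following is a description without a test. The pairs lay 92.2 to 1331 kb apart, and 13 of them crossed an edge of the domain (11 with edges 20 kb further out). The 10 highest long-range pairs of tSBE(6+2-Vp64) and the 10 highest of ESC shared 9 pairs, and the 11 pairs of both lists were all among the 21.

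The pair with the highest mean in tSBE(6+2-Vp64) lay near Shh and SBE4. Shh_140 (chromosome 5:28763979-28767078) with Shh_260 (5:29166827-29168466), 402 kb apart, held 0.492 in ESC 1, 33.2 in ESC 2, 16.0 in 1a, 45.2 in 1b, 52.1 in 2a and 19.3 in 2b per 1000. Libraries 1b and 2a were above ESC 2, and 1a and 2b below it. The next joined the windows of the targeted enhancers SBE6 and SBE2. Shh_178 (chromosome 5:28884804-28887360) with Shh_295 (5:29253038-29259186), 370.0 kb apart, held 0.352 in ESC 1, 10.1 in ESC 2, 11.5 in 1a, 24.5 in 1b, 29.2 in 2a and 6.4 in 2b per 1000. Here 1a, 1b and 2a were above both ESC libraries and 2b was between them. Another linked Lmbr1 to Mnx1, which encodes a transcription factor of motor neurons. Shh_458 (chromosome 5:29703904-29705290) with Shh_491 (5:29806189-29807449), 102 kb apart, held 0.438 in ESC 1, 24.8 in ESC 2, 7.75 in 1a, 23.8 in 1b, 28.6 in 2a and 10.1 in 2b per 1000. Only 2a was above ESC 2. Shh_143 (chromosome 5:28770697-28780563) with Shh_321 (5:29319273-29320195), 544 kb apart, held 0.0736 in ESC 1, 10.5 in ESC 2, 0.140 in 1a, 14.3 in 1b, 19.6 in 2a and 5.55 in 2b per 1000. The first fragment lies in the Shh window, and 1a was near ESC 1 here, unlike its technical partner.

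The other 7 pairs of the 2 lists differed in which libraries were high. Shh_128 (chromosome 5:28723250-28724961) with Shh_494 (5:29815594-29816516), 1092 kb apart, held 0.0456 in ESC 1, 3.54 in ESC 2, 1.83 in 1a, 5.68 in 1b, 20.1 in 2a and 3.64 in 2b per 1000. ESC 2 and 2b were close, 1a was lower and 2a was the highest. Shh_13 (chromosome 5:28347366-28348911) with Shh_81 (5:28581219-28585322), 235 kb apart, held 0.183 in ESC 1, 5.79 in ESC 2, 4.05 in 1a, 9.28 in 1b, 13.7 in 2a and 3.92 in 2b per 1000. Both fragments lie in the Shh-side flank, and 1b and 2a were above ESC 2. Shh_460 (chromosome 5:29706211-29709705) with Shh_491 (5:29806189-29807449), 98.9 kb apart, held 0.197 in ESC 1, 17.4 in ESC 2, 0.233 in 1a, 6.41 in 1b, 10.4 in 2a and 12.0 in 2b per 1000. It shares its second fragment with the Lmbr1 and Mnx1 pair above, and ESC 2 was the highest of the 6 libraries. Shh_64 (chromosome 5:28542833-28543234) with Shh_425 (5:29606038-29607875), 1064 kb apart, held 0.0179 in ESC 1, 2.34 in ESC 2, 0.0579 in 1a, 1.85 in 1b, 22.7 in 2a and 1.33 in 2b per 1000. Most of its level in tSBE(6+2-Vp64) came from 2a. Shh_330 (chromosome 5:29356572-29358986) with Shh_529 (5:29911938-29913290), 555 kb apart, held 0.0405 in ESC 1, 2.85 in ESC 2, 3.38 in 1a, 8.08 in 1b, 8.06 in 2a and 3.37 in 2b per 1000. Each tSBE(6+2-Vp64) library was above both ESC libraries. Shh_154 (chromosome 5:28805019-28805807) with Shh_459 (5:29705291-29706210), 900.3 kb apart, held 0.133 in ESC 1, 3.10 in ESC 2, 0.134 in 1a, 5.94 in 1b, 12.6 in 2a and 2.00 in 2b per 1000. This is the pair between the Shh and Lmbr1 windows, and 1a was at the level of ESC 1. Shh_140 (chromosome 5:28763979-28767078) with Shh_262 (5:29173628-29173865), 408 kb apart, held 0.00820 in ESC 1, 6.30 in ESC 2, 0.0205 in 1a, 2.56 in 1b, 1.76 in 2a and 3.80 in 2b per 1000. It shares a fragment with the highest pair, and ESC 2 was above all 4 tSBE(6+2-Vp64) libraries.

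Over the 21 pairs, both biological replicates of tSBE(6+2-Vp64) were above both ESC replicates in 10, against 16.8% of all 27208 pairs over 50 kb apart, and all 4 libraries were above both ESC in 5, against 1.71% of those pairs. The pairs were picked for a high value in any library of the series, these included, so nothing is read from the excess. The other direction, both biological replicates below both ESC, was found in 4.41% of the pairs over 50 kb apart. It could not be counted where an ESC library was at 0. Library 2a was the highest of the 6 in 17 of the 21 pairs. ESC 2 was above 2b in 12. Neighbours of a pair were read as the pairs of the 3 nearest fragments on either side, with other high pairs left out. Around Shh_140 with Shh_260 they averaged 0.0138 in ESC 1, 0.00988 in ESC 2, 0.0287 in 1a, 0.00918 in 1b, 0.00636 in 2a and 0.0131 in 2b. The pair's height was thus not shared by these neighbours. Shh_140 with Shh_262, a high pair close by, was left out of them, and held 6.30 in ESC 2, 2.56 in 1b, 1.76 in 2a and 3.80 in 2b. It held 0.00820 in ESC 1 and 0.0205 in 1a. The median ratio of a pair to its neighbours, other high pairs again left out, was 3.49 in ESC 1, 124 in ESC 2, 33.0 in 1a, 176 in 1b, 282 in 2a and 127 in 2b. Shh_69 with Shh_361 was at 0 in ESC 1, where 3 reads would be 0.000137 per 1000, and at 7.20 in 2a.

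**Figure D3:**
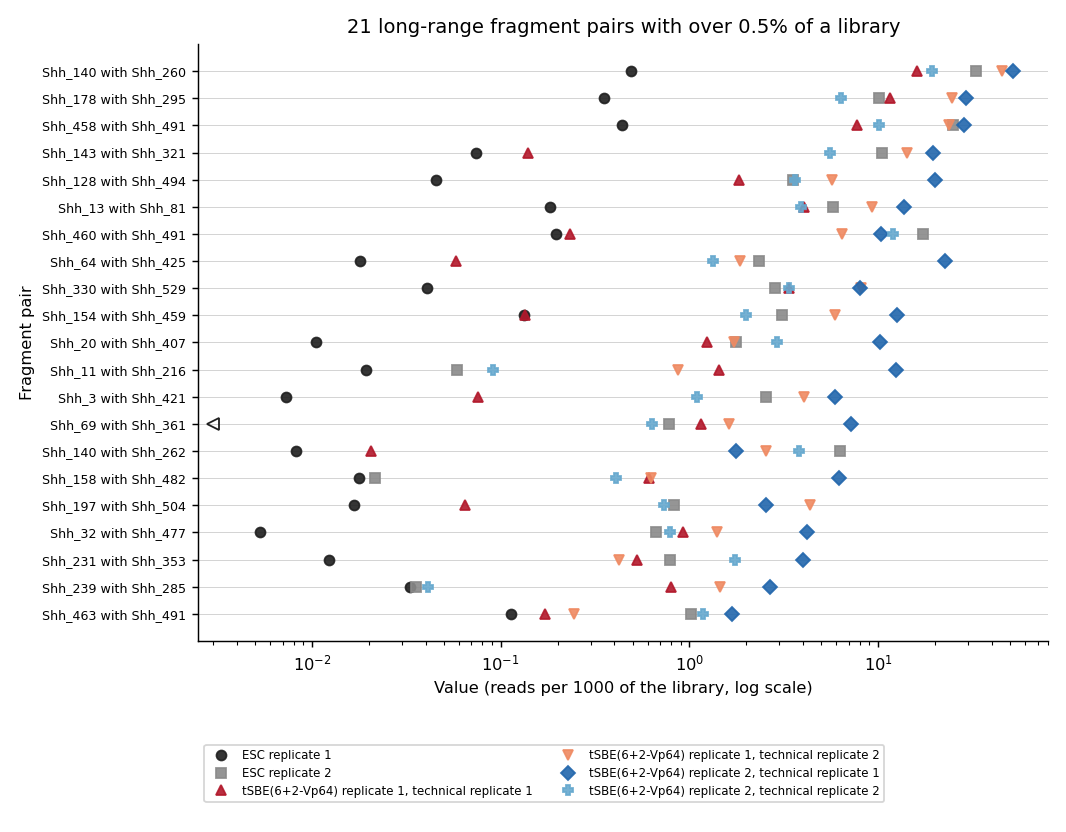
Value (reads per 1000 of the library, log scale) of the 21 long-range fragment pairs that hold over 0.5% of any library, 1 row per pair and 1 point per library; an open triangle at the left edge marks a value of 0. ESC 1 (black) is the lowest point in each row, and 2a (dark blue) is the highest in 17 of them.

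Contacts of Shh with its 3 neural enhancers did not pass the test in tSBE(6+2-Vp64), and the values of the 2 biological replicates lay on opposite sides of ESC. Each element was taken as the fragments within 20 kb of an approximate mm9 coordinate, and the coordinates of the enhancers are not exact. The Shh window covered fragments from 28770697 to 28806894, that of SBE6 from 28876512 to 28899338, that of SBE4 from 29130489 to 29166826 and that of SBE2 from 29230618 to 29270862. The value of an element pair is the mean over its fragment pairs. None of the 91 pairs among 14 elements passed limma's moderated test at a Benjamini-Hochberg adjusted p of 0.05, with the smallest adjusted p at 0.999, and 3 had an unadjusted p under 0.05. Over all 3600 bin and element pairs tested jointly, 0.0556% passed. Log2 differences below are tSBE(6+2-Vp64) minus ESC with the standard error (SE) of the fit.

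Shh with SBE6 held 0.0186 and 0.0144 in ESC 1 and 2 against 0.0453, 0.0175, 0.0137 and 0.00668 in 1a, 1b, 2a and 2b (log2 difference 0.13 ± 0.78 SE). The value of 1a was the highest, 1b lay between the ESC libraries, and 2a and 2b lay below both. Shh with SBE4 held 0.0219 and 0.0164 in ESC 1 and 2 against 0.0384, 0.0119, 0.00823 and 0.0193 in 1a, 1b, 2a and 2b (log2 difference -0.02 ± 0.77 SE). Again 1a was the highest, 2b lay between the ESC libraries, and 1b and 2a lay below both. Shh with SBE2 held 0.0142 and 0.0105 in ESC 1 and 2 against 0.0287, 0.0109, 0.00834 and 0.00500 in 1a, 1b, 2a and 2b (log2 difference -0.07 ± 0.88 SE). The order was that of SBE6, with 1a the highest and 2b the lowest. For all 3, biological replicate 1 was above both ESC replicates and replicate 2 below both. The sign of each difference depended on the setting: over 22 alternatives the Shh and SBE6 difference ran from -0.65 to 0.89, that with SBE4 from -0.54 to 1.77 and that with SBE2 from -0.82 to 0.65. The 95% intervals were -1.56 to 1.82, -1.69 to 1.64 and -1.99 to 1.85, wide enough to hold a rise or a fall of 1 log2 unit.

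The high pair near Shh and SBE4 lies just outside these windows. With windows of 40 kb to either side, Shh with SBE4 took in Shh_140 with Shh_260, which then made up 88.1% of its value in tSBE(6+2-Vp64) and 75.5% in ESC. The log2 difference was then 1.77 (limma adjusted p = 0.0711). Set against the mean of all pairs at the same distance in the same library, Shh with SBE6 was 0.565 in ESC 1, 0.354 in ESC 2, 0.83 in 1a, 0.576 in 1b, 0.329 in 2a and 0.223 in 2b times that mean. It was thus below the library's own average for its distance in all 6, an average that includes the high pairs. Shh with SBE4 was 1.59 in ESC 1, 1.05 in ESC 2, 1.11 in 1a, 0.513 in 1b, 0.313 in 2a and 1.60 in 2b times that average, and Shh with SBE2 was 1.28 in ESC 1, 0.427 in ESC 2, 0.926 in 1a, 0.363 in 1b, 0.271 in 2a and 0.315 in 2b times. By this measure 1a was the highest of the tSBE(6+2-Vp64) libraries for SBE6 and SBE2, and 2b was the highest for SBE4. ESC 1 was above all 4 for SBE2, and both ESC libraries lay within their range for SBE4. The average itself differed between libraries. In the distance class centred on 112 kb it was 0.0297 in ESC 1 and 0.0482 in ESC 2. It was 0.0568, 0.0463, 0.0502 and 0.0281 in 1a, 1b, 2a and 2b. Shh_458 with Shh_491, in that class, held 0.438 in ESC 1 and 24.8 in ESC 2. It held 7.75, 23.8, 28.6 and 10.1 in 1a, 1b, 2a and 2b. How far high pairs set these ratios was not tested.

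Further along the domain, Shh with Rnf32 held 0.0114 and 0.00655 in ESC 1 and 2 against 0.0266, 0.00783, 0.00513 and 0.00581 in 1a, 1b, 2a and 2b (log2 difference 0.16 ± 0.95 SE). The highest was 1a, and 2a and 2b were below both ESC libraries. Shh with ZRS, the limb enhancer, held 0.0203 and 0.0112 in ESC 1 and 2 against 0.0386, 0.0147, 0.0130 and 0.0152 in 1a, 1b, 2a and 2b (log2 difference 0.35 ± 0.77 SE). Library 1a was the highest, and 1b, 2a and 2b lay between the ESC libraries. Shh with Lmbr1 held 0.0169 and 0.116 in ESC 1 and 2 against 0.0234, 0.182, 0.464 and 0.0694 in 1a, 1b, 2a and 2b (log2 difference 1.87 ± 0.81 SE). The values of 1b and 2a were above both ESC libraries, and those of 1a and 2b lay between them. The single fragment pair Shh_154 with Shh_459 made up 82.3% of the tSBE(6+2-Vp64) value of Shh with Lmbr1 and is one of the 21 high pairs. Without the high pairs the values were 0.0134 and 0.0253 in ESC 1 and 2 against 0.0201, 0.00789, 0.0956 and 0.0111 in 1a, 1b, 2a and 2b, and only 2a was above both ESC libraries. Across the Lmbr1 edge, Shh with Nom1 held 0.00903 and 0.00525 in ESC 1 and 2 against 0.0196, 0.00583, 0.00767 and 0.00408 in 1a, 1b, 2a and 2b, Shh with Mnx1 held 0.0172 and 0.0140 in ESC 1 and 2 against 0.0185, 0.0130, 0.0126 and 0.0100 in 1a, 1b, 2a and 2b, and Shh with Ube3c, a ubiquitin ligase gene, held 0.00384 and 0.00331 in ESC 1 and 2 against 0.0141, 0.00618, 0.00502 and 1.08e-05 in 1a, 1b, 2a and 2b. Their log2 differences were 0.30 ± 1.01, -0.20 ± 0.81 and 0.46 ± 1.13. Library 1a was the highest in all 3.

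Contacts of Shh with the 4 genes of the flank on its own side differed in direction. Shh with En2, a homeobox gene of the midbrain and hindbrain, held 0.0223 and 0.0265 in ESC 1 and 2 against 0.0210, 0.00962, 0.00894 and 0.00373 in 1a, 1b, 2a and 2b (log2 difference -1.23 ± 0.86 SE). All 4 tSBE(6+2-Vp64) libraries lay below both ESC libraries. It was the only pair of Shh in which this held, and it did not pass (limma adjusted p = 0.999). Shh with Rbm33, the nearest gene, held 0.00506 and 0.00372 in ESC 1 and 2 against 0.0173, 0.00530, 0.00610 and 0.00834 in 1a, 1b, 2a and 2b (log2 difference 0.94 ± 1.07 SE). Every tSBE(6+2-Vp64) library lay above both ESC libraries, at low values. Shh with Insig1, a regulator of sterol synthesis, held 0.0160 and 0.0182 in ESC 1 and 2 against 0.0339, 0.0186, 0.0239 and 0.0138 in 1a, 1b, 2a and 2b (log2 difference 0.37 ± 0.74 SE). In this pair 1a, 1b and 2a were above both ESC libraries and 2b below both. Shh with Cnpy1 held 0.0106 and 0.00914 in ESC 1 and 2 against 0.0222, 0.00779, 0.00652 and 0.00800 in 1a, 1b, 2a and 2b (log2 difference 0.08 ± 0.96 SE). Apart from 1a, the highest, the tSBE(6+2-Vp64) libraries were below both ESC libraries. Of the 13 pairs of Shh, both biological replicates were above both ESC replicates in 2 and below both in 1. Among 3509 bin pairs the same was true of 17.0% and 4.02%. The median log2 difference of the 13 was 0.16, against 0.26 over all bin pairs. Library 1a was the highest of the 6 in 11 of the 13 pairs.

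**Figure D4:**
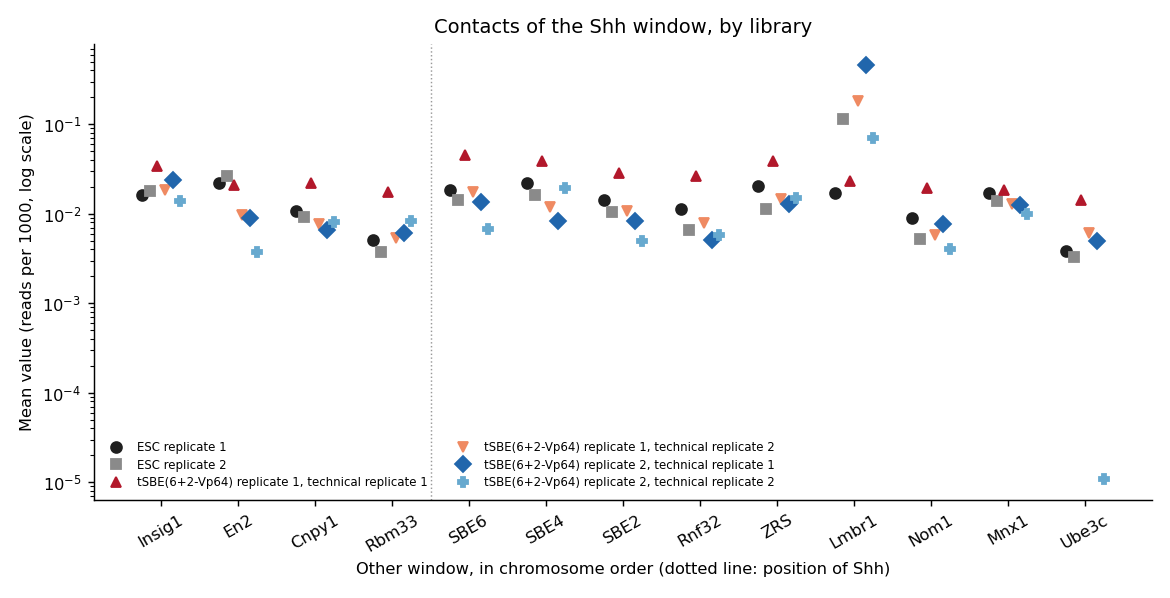
Mean value (reads per 1000, log scale) of the Shh window with each of the other 13 windows in chromosome order, 1 point per library. Library 1a (red) is highest in 11 of 13, the Shh and Lmbr1 values spread from 0.0169 to 0.464 through 1 fragment pair, and Ube3c in 2b is at 1.08e-05.

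Contacts between the 2 targeted enhancers had a higher mean in both biological replicates of tSBE(6+2-Vp64) than in either ESC replicate, mostly through 1 fragment pair, and did not pass the test. SBE6 with SBE2 held 0.0271 and 0.201 in ESC 1 and 2 against 0.206, 0.403, 0.484 and 0.128 in 1a, 1b, 2a and 2b (log2 difference 2.03 ± 0.76 SE). Libraries 1a, 1b and 2a were above both ESC libraries, and 2b lay between them. The biological replicates were 0.304 and 0.306, both above both ESC replicates. It was one of the 3 element pairs with an unadjusted p under 0.05 (limma adjusted p = 0.999, and 5.20e-05 to 1.00 over its alternatives). It passed in the fit without ESC 2 (log2 difference 3.45), and without ESC 1 the difference was 0.60. Shh_178 with Shh_295 made up 83.9% of the value in tSBE(6+2-Vp64). Without that pair the element pair held 0.0223 and 0.0568 in ESC 1 and 2 against 0.0417, 0.0538, 0.0674 and 0.0372 in 1a, 1b, 2a and 2b, and the groups overlapped. With values capped at the 99th percentile of their distance class the log2 difference was 0.04.

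SBE6 with SBE4 held 0.0265 and 0.0197 in ESC 1 and 2 against 0.0531, 0.0487, 0.0208 and 0.0133 in 1a, 1b, 2a and 2b (log2 difference 0.36 ± 0.70 SE). Libraries 1a and 1b were above both ESC libraries, 2a was between them and 2b below. SBE4 with SBE2 held 0.0451 and 0.0231 in ESC 1 and 2 against 0.0550, 0.0229, 0.0162 and 0.0272 in 1a, 1b, 2a and 2b (log2 difference -0.15 ± 0.70 SE). Here 1a was the highest, 2b was between the ESC libraries, and 1b and 2a were below both. Over the 13 pairs of SBE6 the median log2 difference was 0.33, over those of SBE4 0.30 and over those of SBE2 0.03. The difference was above 0 in 13 of 13 pairs of SBE6, 8 of 13 of SBE4 and 7 of 13 of SBE2, beside 63.2% of all bin pairs. In the 13 pairs of SBE6, biological replicate 1 was above both ESC replicates in 13, biological replicate 2 was below both in 9, and 1a was the highest of the 6 libraries in 12.

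Seen from each window, the share of the library's signal in its contacts over 50 kb was, for SBE6, 2.35% and 2.97% in ESC 1 and 2 and 6.51%, 4.63%, 4.86% and 1.96% in 1a, 1b, 2a and 2b, and for SBE2 3.44% and 4.03% in ESC 1 and 2 and 7.65%, 5.61%, 6.08% and 2.83% in 1a, 1b, 2a and 2b. Without the 21 high pairs these shares were 2.32% and 2.24% in ESC 1 and 2 and 5.65%, 2.61%, 2.68% and 1.44% in 1a, 1b, 2a and 2b for SBE6 and 3.40% and 3.46% in ESC 1 and 2 and 6.77%, 3.61%, 3.99% and 2.38% in 1a, 1b, 2a and 2b for SBE2. Library 1a then stood above the other 5, with 1b and 2a near the ESC libraries and 2b below them. For Shh without the high pairs, the part of this signal that stayed in the domain was 63.7% and 60.8% in ESC 1 and 2 and 62.4%, 64.8%, 47.9% and 65.8% in 1a, 1b, 2a and 2b. The part that went to the flank beyond Lmbr1 was 14.9% and 19.8% in ESC 1 and 2 and 16.3%, 18.2%, 34.9% and 13.5% in 1a, 1b, 2a and 2b, with 2a apart from the rest. For ZRS the domain part was 64.0% and 66.8% in ESC 1 and 2 and 57.7%, 58.5%, 53.5% and 59.5% in 1a, 1b, 2a and 2b, and all 4 tSBE(6+2-Vp64) libraries were below both ESC libraries. No high pair touches the ZRS window, so these shares hold without them. Leaving out the high pairs, the same order was found for both targeted enhancers. For SBE6 the domain part was then 74.0% and 75.9% in ESC 1 and 2. It was 63.2%, 70.2%, 68.2% and 72.2% in 1a, 1b, 2a and 2b. For SBE2 it was 78.7% and 74.3% in ESC 1 and 2. It was 67.2%, 64.0%, 61.4% and 71.8% in 1a, 1b, 2a and 2b. With the high pairs included, the order held for neither. For SBE4, 2b (74.9%) was not below ESC. These differences were not tested.

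Across the whole region, 2 of 3509 bin pairs rose in tSBE(6+2-Vp64) and none fell (limma with adjusted p under 0.05). At an unadjusted p under 0.05 there were 120, or 3.42%, of which 113 were higher and 7 lower. The median log2 difference was 0.26, and 63.2% of bin pairs were above 0. By distance the median was -0.30 for bins up to 40 kb apart, 0.01 for those over 40 to 200 kb, 0.23 for those over 200 to 500 kb and 0.50 beyond 500 kb. Without 1a these medians were -0.27, -0.46, -0.20 and 0.08, and the median of all bin pairs was -0.15. With each value divided by its library's mean at that distance, the median over all bin pairs was -0.14, so a direction for the region as a whole depended on the scaling. All 4 libraries lay above both ESC libraries in 3.99% of bin pairs and below both in 0.969%. The map of the difference shows gains scattered among distant bins and losses along the diagonal.

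The 2 bin pairs that rose joined sequence that holds none of the neural enhancer windows. The bins that start at 28820001, just inside the domain, and at 29760001, by Nom1, held 0.00655 and 0.00542 in ESC 1 and 2 against 0.161, 0.156, 1.56 and 0.103 in 1a, 1b, 2a and 2b (log2 difference 5.75 ± 0.70 SE, limma adjusted p = 0.00786). All 4 tSBE(6+2-Vp64) libraries were above both ESC libraries, and 2a was far above the rest. Shh_158 with Shh_482 made up 99% of its tSBE(6+2-Vp64) value, and without it the log2 difference was 2.10. The bins that start at 29800001, by Mnx1, and at 30000001, at the end of the region, held 0.00747 and 0.00208 in ESC 1 and 2 against 0.341, 0.134, 0.284 and 0 in 1a, 1b, 2a and 2b (log2 difference 5.24 ± 0.71 SE, limma adjusted p = 0.0119). The values of 1a, 1b and 2a were above both ESC libraries, and in 2b all 4 fragment pairs were at 0, where 3 reads of a pair would be 0.000324. Shh_493 with Shh_555 made up 96.8% of its tSBE(6+2-Vp64) value, and without it the log2 difference was 0.05. Both calls were lost without 1a (limma adjusted p = 0.251 for each), without 2a (0.0654 and 0.999), without 2b (0.111 and 0.102) and without either biological replicate of tSBE(6+2-Vp64). Both held without either ESC replicate, and the first was lost without the high pairs. The number of bin pairs that passed was 50 without ESC 1 and 42 without ESC 2, 10 without 1b, and 0 without 1a, 2a, 2b or either biological replicate of tSBE(6+2-Vp64).

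The next 3 by p, among those with both biological replicates above both ESC replicates, missed the threshold. The bins at 28340001 and 29000001 held 0.0104 and 0.00641 in ESC 1 and 2 against 0.131, 0.0736, 0.962 and 0.00786 in 1a, 1b, 2a and 2b (log2 difference 4.64 ± 0.76 SE, limma adjusted p = 0.0515). Library 2a was far above the rest and 2b lay between the ESC libraries. Shh_11 with Shh_216 made up 96.8% of its tSBE(6+2-Vp64) value, and without it the log2 difference was 0.85. The bins at 28580001 and 29320001 held 0.00696 and 0.00359 in ESC 1 and 2 against 0.0785, 0.0981, 0.0908 and 0.0113 in 1a, 1b, 2a and 2b (log2 difference 3.54 ± 0.63 SE, limma adjusted p = 0.0801). Again each tSBE(6+2-Vp64) library was above both ESC libraries. Shh_81 with Shh_324 made up 78.2% of its tSBE(6+2-Vp64) value, and without it the log2 difference was 1.62. The bins at 29080001 and 29220001, the second overlapping the SBE2 window, held 0.0146 and 0.0134 in ESC 1 and 2 against 0.0973, 0.140, 0.248 and 0.0179 in 1a, 1b, 2a and 2b (log2 difference 3.09 ± 0.60 SE, limma adjusted p = 0.137). Each of the 4 was above both ESC libraries, 2b by the least. Shh_239 with Shh_285 made up 82.4% of its tSBE(6+2-Vp64) value, and without it the log2 difference was 0.94. In each of the 5 bin pairs named so far, a single fragment pair made up between 78.2% and 99% of the tSBE(6+2-Vp64) value.

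No bin pair fell by the test. The 5 with the smallest p among those whose 2 biological replicates were below both ESC replicates included 3 with a bin in the En2 window. The bins at 28480001, with En2, and 29800001, with Mnx1, held 0.0614 and 0.0305 in ESC 1 and 2 against 0.0222, 0.00998, 0.00807 and 0.00411 in 1a, 1b, 2a and 2b (log2 difference -2.03 ± 0.79 SE, limma adjusted p = 0.999). Each of the 4 was below both ESC libraries. The bins at 28480001, with En2, and 28780001, with Shh, held 0.0693 and 0.0638 in ESC 1 and 2 against 0.0320, 0.0305, 0.0214 and 0.0116 in 1a, 1b, 2a and 2b (log2 difference -1.51 ± 0.66 SE, limma adjusted p = 0.999). All 4 were again below both. Pairs within the bin at 28460001, at the edge of that window, held 0.393 and 0.857 in ESC 1 and 2 against 0.0311, 0.313, 0.136 and 0.381 in 1a, 1b, 2a and 2b (log2 difference -1.46 ± 0.59 SE, limma adjusted p = 0.999). All 4 were below both, with 1a the lowest. In these 3, 15.1%, 33.8% and 75.6% of the tSBE(6+2-Vp64) value came from the fragment pair that differed most, and without it the log2 differences were -1.77, -1.28 and -0.58. Each of the other bin pairs consists of 1 fragment pair. The bins at 28380001 and 29680001 held 0.0259 and 0.0780 in ESC 1 and 2 against 0.0189, 0.000130, 9.04e-05 and 0.000216 in 1a, 1b, 2a and 2b (log2 difference -3.87 ± 1.27 SE, limma adjusted p = 0.902). The value of 1a was a little below the lower ESC library, and those of 1b, 2a and 2b were near 0. The bins at 28920001 and 29360001 held 0.0301 and 0.0181 in ESC 1 and 2 against 0.0210, 0.000130, 0.00262 and 0 in 1a, 1b, 2a and 2b (log2 difference -2.30 ± 0.93 SE, limma adjusted p = 0.999). Library 1a lay between the ESC libraries and the other 3 were far below both.

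**Figure D5:**
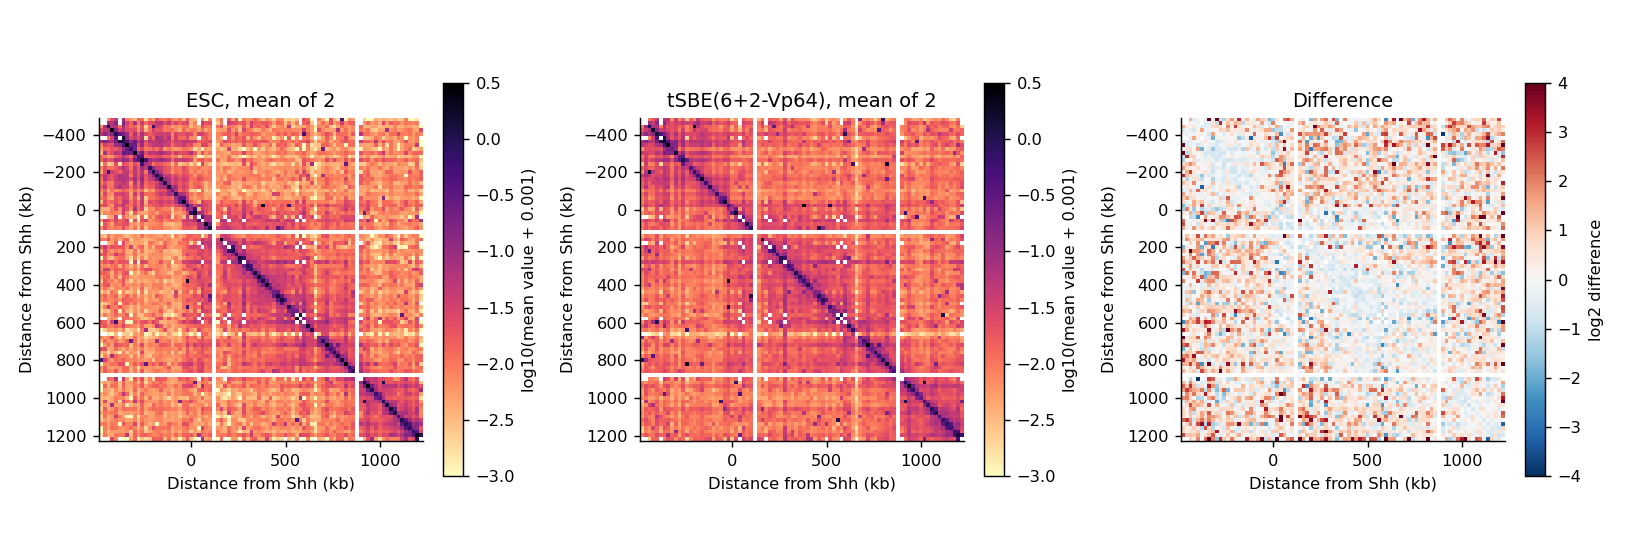
Maps of 20-kb bin pairs as log10(mean value + 0.001) in ESC (left) and in tSBE(6+2-Vp64) (middle), each the mean of 2 biological replicates, and the log2 difference (right, red for higher in tSBE(6+2-Vp64)); axes are kb from Shh, and white cells had no pair to test. The median difference is -0.30 up to 40 kb, along the diagonal, and 0.50 beyond 500 kb, towards the corners.

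By fragment, the total of all contacts over 50 kb did not pass for any of 341 fragments, a share of 0%. At an unadjusted p under 0.05 limma gave 23, or 6.74%, all of them higher in tSBE(6+2-Vp64), and 20 of the 23 belonged to the 21 high pairs, which involve 39 fragments. The median log2 difference was 1.25 for those 39 fragments and 0.19 for the others. The high pairs were picked for a high value in any library, tSBE(6+2-Vp64) included, and the totals of these fragments contain them. Nothing is therefore read from the larger median or from the 20 of 23. Both biological replicates were above both ESC replicates in 84 fragments (24.6%) and below both in 2. Without ESC 2, 23 fragments passed.

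The 5 largest positive differences, among fragments with both biological replicates above both ESC replicates, all belonged to fragments of high pairs, and none passed. Shh_178 (chromosome 5:28884804-28887360), in the SBE6 window, totalled 2.68 and 14.4 in ESC 1 and 2 against 19.6, 29.9, 35.5 and 9.55 in 1a, 1b, 2a and 2b (log2 difference 1.83 ± 1.13 SE, limma adjusted p = 0.954). Its partner Shh_295 gave 75.8% of the tSBE(6+2-Vp64) total, and 2b was below ESC 2. Shh_11 (chromosome 5:28340961-28344675) totalled 1.24 and 1.47 in ESC 1 and 2 against 6.39, 1.88, 14 and 1.04 in 1a, 1b, 2a and 2b (log2 difference 1.78 ± 0.51 SE, limma adjusted p = 0.117). Its partner Shh_216 gave 63.4%. Shh_216 (chromosome 5:29005071-29006498) totalled 2.37 and 1.31 in ESC 1 and 2 against 8.25, 3.09, 13.1 and 1.12 in 1a, 1b, 2a and 2b (log2 difference 1.63 ± 0.49 SE, limma adjusted p = 0.117). In both partners 1a, 1b and 2a were above both ESC libraries and 2b below both. Shh_128 and Shh_494 are partners of each other and had log2 differences of 1.67 ± 0.54 and 1.66 ± 0.52. Only 2 fragments had both biological replicates below both ESC replicates. Shh_145 (chromosome 5:28782635-28789524), which lies in the Shh window, totalled 2.94 and 2.82 in ESC 1 and 2 against 3.66, 1.79, 1.34 and 1.89 in 1a, 1b, 2a and 2b (log2 difference -0.38 ± 0.51 SE, limma adjusted p = 0.997). Library 1a was above both ESC libraries and the other 3 below both. Shh_362 (chromosome 5:29436154-29438524) totalled 1.61 and 1.62 in ESC 1 and 2 against 1.86, 1.23, 0.558 and 1.35 in 1a, 1b, 2a and 2b (log2 difference -0.31 ± 0.58 SE, limma adjusted p = 0.997). Library 1a was again above both ESC libraries.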

How the data were processed

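5C contacts across the Shh region were compared in 6 libraries. The other libraries of the series entered the estimate of spread, the pseudocount, the filters and the choice of high pairs. Per the submitters' processing notes the coordinates are mm9. The deposited signal is, from its values, the reads of a fragment pair per 1000 reads of the library, scaled by the authors. For the aligner, the counting and the filters nothing is given in the sources used here. Low values were whole multiples of 1 step (tolerance 0.05), which gave depths of 9.25 to 38.4 M reads.

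Libraries were rescaled to 1000 over 341 shared fragments, and technical replicates were averaged within a biological replicate. Values were averaged over pairs of 20-kb bins, pairs of element windows and fragment totals beyond 50 kb, and bin pairs at 0 in all but 1 biological replicate were dropped. They were tested on log2(value + pseudocount), with the pseudocount at the 5th percentile of values above 0, so fold changes of low values are understated. The test was limma 3.58.1 in R 4.3.3 (lmFit, eBayes with trend, two-sided, Benjamini-Hochberg over 3600 bin and element pairs, and over 341 fragments separately). The fit held 5 groups and 8 biological replicates from 11 distinct libraries, since 1 of the 12 had the same values as another and was counted once. It left 3 residual degrees of freedom. The groups labelled tSBE6-Vp64 and tSBE2-Vp64 have 1 biological replicate each and add none. Beyond the groups compared, the residual spread thus came from neural progenitors alone, whose replicate 2 had 1.87 M reads. Shares, slopes and insulation were tested by exact permutation in Python with scipy 1.17.1. The script was tested on simulated data, with planted differences and independent normal noise of 1 common spread. That noise is simpler than the spread of these libraries, so the simulation does not vouch for the calls reported here. What separated the biological replicates (cultures or days) is not stated, so p-values measure the spread between these samples.

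Bin pairs were named by the 5 smallest p in each direction with both biological replicates beyond both ESC replicates, fragment pairs by the 10 highest means of each group, and fragments by the 5 largest differences in each direction. Element pairs were those of Shh and those among SBE6, SBE4 and SBE2. The samples, elements and limits were chosen with earlier results of these data known. Alternatives covered bin size, pseudocount, filters, the samples in the fit, the replicate block, the treatment of high pairs and distance, and leaving out each replicate.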

Additional observations from a re-analysis of the deposited data

Results flagged for a closer look

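Among the 4 tSBE(6+2-Vp64) libraries, a single library stood far from the other 3 in 7 of the 34 measures looked at. Chance alone gives this in about 1 in 20 groups of independent values, but the bin pairs were named for small p, the pairs of Shh share libraries and the 4 libraries are 2 pairs of technical replicates, so no expected number applies here. The gap to the nearest library exceeded Dixon's limit for 4 values in each. Library 1a, technical replicate 1 of biological replicate 1, was the one in 5 of them. It held 0.0222 per 1000 for Shh with Cnpy1, 0.0266 for Shh with Rnf32 and 0.0386 for Shh with ZRS, above the other 3. It also held 0.0189 in the bins at 28380001 and 29680001 and 0.0210 in those at 28920001 and 29360001, where the other 3 were near 0. Library 2a, technical replicate 1 of biological replicate 2, was the one in the remaining measures. It held 1.56 in the bins at 28820001 and 29760001 and 0.962 in those at 28340001 and 29000001, above the other 3. The same libraries were those with the most even and the most uneven spread of reads over pairs: 50% of the signal lay in 4310 pairs of 1a and in 110 pairs of 2a. What part this spread has in the values was not tested.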

How the results depend on the processing

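Bin pairs that passed (2 in the fit reported) numbered 0 with 10-kb bins, 23 with 40-kb bins, 1 with a pseudocount 5 times lower, 26 when all 8 replicates had to be above 0, 25 with only the 2 groups in the fit, 0 without limma's trend, 0 with values capped at the 99th percentile, 0 after division by the distance mean and 1 with the mean of log2 over fragment pairs, an alternative chosen after seeing the data. Leaving out 1 biological replicate gave 0 to 50 bin pairs, 0 to 3 element pairs and 0 to 23 fragment totals, where a lone replicate was assumed to vary like the other groups. Without 1a, 1b, 2a and 2b in turn the bin pairs numbered 0, 10, 0 and 0, and without 1a 1 fragment total passed. With the replicate number as a block, 26 bin pairs, 2 fragment totals and 0 element pairs passed. Same-numbered replicates deviated together with r = 0.221 over 3509 bin pairs, but with only 2 pairs the number was not taken as a pairing, and the block also gave a call to the 3 named bin pairs with higher values that missed the threshold and changed no other named result.

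Differences of Shh with the enhancers changed sign. Shh with SBE6 (0.13) was -0.14 with 40-kb windows, -0.011 after division by the distance mean, -0.28 without 1a and -0.15 without 2a, and -0.65 to 0.89 when a biological replicate was left out. Shh with SBE4 (-0.02) was 0.57 and 1.77 with 10-kb and 40-kb windows, 0.052 without the high pairs, 0.27 without 1b, 0.21 without 2a, 0.31 with the mean of log2 and -0.45 to 0.39 without a biological replicate. Shh with SBE2 (-0.07) was 0.18 and 0.018 with 10-kb and 40-kb windows, 0.054 without the high pairs, 0.19 without 1b, 0.074 without 2b and -0.82 to 0.65 without a biological replicate. Shh with ZRS (0.35) was -0.33 after division by the distance mean, -0.068 without 1a and -0.10 to 0.77 without a biological replicate. SBE6 with SBE2 stayed above 0, at 0.60 to 3.45 without a biological replicate. Insulation at the Shh edge differed by 0.20 without 2a and 1.06 without 2b. That at the Lmbr1 edge differed by -0.15 without the high pairs and by -0.37 to 1.64 without a biological replicate. The causes were not tested.

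The 10 named bin pairs kept their side of the threshold in 162 combinations of bin pair and alternative, gained a call in 18 and lost it in 20. All losses fell on the 2 bin pairs that passed. Each of them lost its call in 10 of its 20 alternatives. A planned count test on reads recovered from the value steps was not run. At the lowest depth 3 reads of a pair are 0.000324 per 1000. Most pairs of 2a and 2b were at 0, and in ESC 2 only 49.9% were above 0. A single pair at 0 in any of these libraries does not show that contact was absent.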

Other observations

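Element pairs without Shh also divided the libraries. Of all 91 element pairs, both biological replicates of tSBE(6+2-Vp64) were above both ESC replicates in 12 and below both in 4, where 17.0% and 4.02% of bin pairs did so. In 5 pairs all 4 libraries lay above both ESC libraries and in 2 below both, against 3.99% and 0.969% of bin pairs. None passed limma's test (smallest adjusted p = 0.999).

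Contacts of En2 and Mnx1, homeobox genes of the midbrain and of motor neurons, held 0.0217 and 0.0141 in ESC 1 and 2 against 0.0127, 0.00463, 0.00351 and 0.00354 in 1a, 1b, 2a and 2b (log2 difference -1.51 ± 0.90 SE). All 4 tSBE(6+2-Vp64) libraries were lower, as they were for En2 with Shh. En2 with ZRS held 0.00599 and 0.00206 in ESC 1 and 2 against 0.0278, 0.0102, 0.0328 and 0.00228 in 1a, 1b, 2a and 2b (log2 difference 2.11 ± 0.95 SE). Here 1a, 1b and 2a were above both ESC libraries, 2b was between them, and Shh_53 with Shh_444 made up 55.3% of the tSBE(6+2-Vp64) value. Contacts of Cnpy1 with SBE6 held 0.00551 and 0.00839 in ESC 1 and 2 against 0.0254, 0.00904, 0.0132 and 0.00924 in 1a, 1b, 2a and 2b (log2 difference 0.95 ± 0.92 SE). Cnpy1 with ZRS held 0.00584 and 0.00636 in ESC 1 and 2 against 0.0210, 0.00855, 0.00780 and 0.00757 in 1a, 1b, 2a and 2b. In both, each tSBE(6+2-Vp64) library was above both ESC libraries, and 1a was the highest. SBE6 with Lmbr1 held 0.00554 and 0.00567 in ESC 1 and 2 against 0.0255, 0.0114, 0.00640 and 0.00711 in 1a, 1b, 2a and 2b, and Rbm33 with SBE2 held 0.00258 and 0.00302 in ESC 1 and 2 against 0.0118, 0.00358, 0.00475 and 0.00437 in 1a, 1b, 2a and 2b. These low values were again highest in 1a, and the other 3 were also above both ESC libraries.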
